A study of Homo sapiens with 6 samples.

Results

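Genes that fold, import or remove proteins in the endoplasmic reticulum (ER) were followed, 46 in all, in 3 classes: 16 chaperones and folding factors, 9 genes of the translocon and 21 factors of ER-associated degradation. They were chosen by gene symbol, and a probe set with 1 of these symbols was found for 44 of the 46, among 24241 genes measured. SEC61G of the translocon and UFL1 of the degradation class were not analysed here. Both groups were cells of HepG2, a line derived from a human liver cancer, grown in RPMI and collected after 24 hours. One group received the solvent DMSO (3 arrays) and the other 0.75 µM verteporfin (3 arrays), a porphyrin used as a photosensitiser and described as an inhibitor of YAP acting with TEAD factors. Exposure of the cultures to light is not given in the sources used here.

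Proteins made for secretion or for membranes enter the ER through the translocon, a channel that receives the growing chain from the ribosome. Inside, chaperones built around HSPA5 (also called BiP) and the lectins calnexin and calreticulin hold the chain until it folds. Chains that do not fold are recognised, passed back through the membrane, tagged with ubiquitin and destroyed by the proteasome. When unfolded chains accumulate, the sensors of the unfolded protein response raise transcription of many of these genes, in part through the ER stress element in their promoters. Liver cells secrete most plasma proteins and so carry a heavy load on this system.

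The promoters of a few members are shown first, because the ER stress element was described in genes of this kind. RefSeq windows (GRCh38.p14, 250 bases before to 50 after each annotated start) were found for 43 of the 46 members, 50 windows in all, among 35116 windows. For 5 members, the 250 bases before the start are printed 5′ to 3′ along the gene's strand, with motif matches in capitals. They hold both forms of the element, the overlap with another motif, and a match in CALR, which did not pass the test below.
HSPA5, chr9:125241344-125241593, minus strand: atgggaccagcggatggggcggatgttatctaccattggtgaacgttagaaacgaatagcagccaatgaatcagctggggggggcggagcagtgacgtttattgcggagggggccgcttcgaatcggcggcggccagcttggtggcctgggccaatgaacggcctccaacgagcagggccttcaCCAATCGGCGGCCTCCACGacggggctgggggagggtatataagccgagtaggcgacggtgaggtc
HERPUD1, chr16:56931892-56932141, plus strand: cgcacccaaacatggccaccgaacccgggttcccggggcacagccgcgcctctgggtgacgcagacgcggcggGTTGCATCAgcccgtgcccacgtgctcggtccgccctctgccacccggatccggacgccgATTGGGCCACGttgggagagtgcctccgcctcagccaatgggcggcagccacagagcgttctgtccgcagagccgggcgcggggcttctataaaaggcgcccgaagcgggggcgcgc
SDF2L1, chr22:21642052-21642301, plus strand: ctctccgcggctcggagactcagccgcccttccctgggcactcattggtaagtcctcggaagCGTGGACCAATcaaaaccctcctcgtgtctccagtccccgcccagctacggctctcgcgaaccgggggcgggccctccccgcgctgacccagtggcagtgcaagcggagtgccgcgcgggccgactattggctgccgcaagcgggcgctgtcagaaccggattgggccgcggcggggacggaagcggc
HYOU1, chr11:119057206-119057455, minus strand: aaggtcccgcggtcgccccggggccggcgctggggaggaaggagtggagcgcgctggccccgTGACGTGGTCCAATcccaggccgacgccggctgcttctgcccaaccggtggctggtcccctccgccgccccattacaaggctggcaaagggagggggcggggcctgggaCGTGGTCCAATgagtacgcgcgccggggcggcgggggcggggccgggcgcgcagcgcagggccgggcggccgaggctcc
CALR, chr19:12938359-12938608, plus strand: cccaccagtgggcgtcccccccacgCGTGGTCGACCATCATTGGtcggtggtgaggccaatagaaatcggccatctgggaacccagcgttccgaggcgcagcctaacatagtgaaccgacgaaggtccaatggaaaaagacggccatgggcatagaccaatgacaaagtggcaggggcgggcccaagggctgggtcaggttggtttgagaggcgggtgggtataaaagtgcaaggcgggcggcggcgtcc

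The search covered 4 motifs on both strands. The ER stress element, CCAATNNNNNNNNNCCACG, stood in 27 of the 35116 windows (0.0769%) and in 8 of the 50 member windows (16.0%). Those windows belong to 6 members: HSPA5, HSP90B1, CALR, CANX and CRELD2 of the chaperones and SERP1 of the translocon. HSP90B1 held 2 matches, and CANX 1 match that 3 of its 4 windows share. In all, the 27 windows hold 24 distinct positions. The second form, ATTGGNCCACG, stood in 19 windows (0.0541%) and in 3 of the 50 member windows (6.0%). Those belong to HERPUD1, SDF2L1 and HYOU1, the last with 2 matches. Among degradation factors with a window, HERPUD1 alone held either form. Because the element was described in genes of this kind, its higher share in members was partly given in advance. It is a description and not a result about the members.
The core of the unfolded protein response element, TGACGTGG, stood in 256 windows (0.729%) and in 6 members (DNAJC10, HYOU1, SSR3, SEC62, UBE2J1 and VCP). In HYOU1 it overlaps a match of the second form. The composite element TGATGNAAN, bound by ATF4 with C/EBP factors, stood in 1268 windows (3.61%). It stood in 1 of the 50 member windows (2.0%), that of HERPUD1, so it was not more frequent in members. Of the 21 members that rose at least 2-fold (below), 20 had a window. Of these, 8 held at least 1 of the 4 motifs and 12 held none, DNAJB9 and MANF among them. Members without such a rise held a motif too (HSP90B1, CANX, CALR, SSR3, SEC62 and VCP). The share of all windows with any of the 4 motifs was not computed, so these counts are a description only. A match is a string of letters in this window, and binding was not measured.

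**Figure D1:**
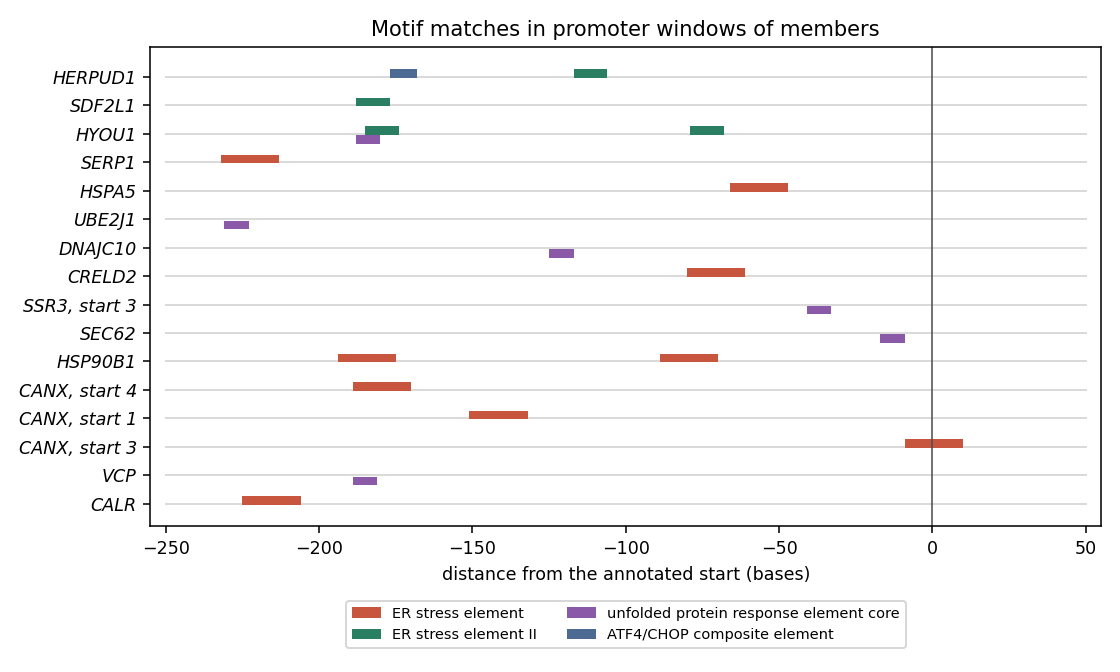
Position of each motif match, as distance in bases from the annotated start, in the promoter windows of members with at least 1 match, ordered by their log2 difference with the largest at the top. The second form of the ER stress element (green) sits in the 3 members at the top, HERPUD1, SDF2L1 and HYOU1, and the first form (red) in members from SERP1 down to CALR. Other genes with these motifs are not drawn.

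Verteporfin minus DMSO was tested for each gene with limma on the RMA log2 signals, with p adjusted over all 24241 genes and a threshold of 0.05. Of the 44 members, 38 rose, 0 fell and 6 did not pass. Over all genes, 28.5% passed, 14.3% higher and 14.3% lower, and of genes above the median signal 51.9% passed. All 44 members had a mean above the median signal (4.83), and of the 12257 genes above it 26.3% rose and 25.6% fell. The count of 0 members lower rests on limma with adjusted p, and 2 members, UBE2G2 and MAN1B1, were lower at an unadjusted p under 0.05. A rise of at least 2-fold was found for 21 members, against 2.71% of all genes and 5.26% of those above the median signal. The 3 verteporfin arrays lay above the 3 DMSO arrays for 40 members (19.6% of all genes and 31.8% of those above the median signal), below them for 1 (19.5%, and 30.9% of genes above the median signal) and overlapped them for 3. The median log2 difference was 0.87 over the members and 0.00 over all genes. Since these arrays read lysates of many cells, a change in every cell and a larger change in part of the cells cannot be told apart.

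All 3 classes held more genes that rose than did not pass. Among chaperones 14 of 16 rose, 10 of them at least 2-fold, with a median difference of 1.09. In the translocon 8 of 8 rose, but 1 at least 2-fold, with a median of 0.58. Among degradation factors 16 of 20 rose, 10 of them at least 2-fold, with a median of 0.98. The difference between the classes was not tested.

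**Figure D2:**
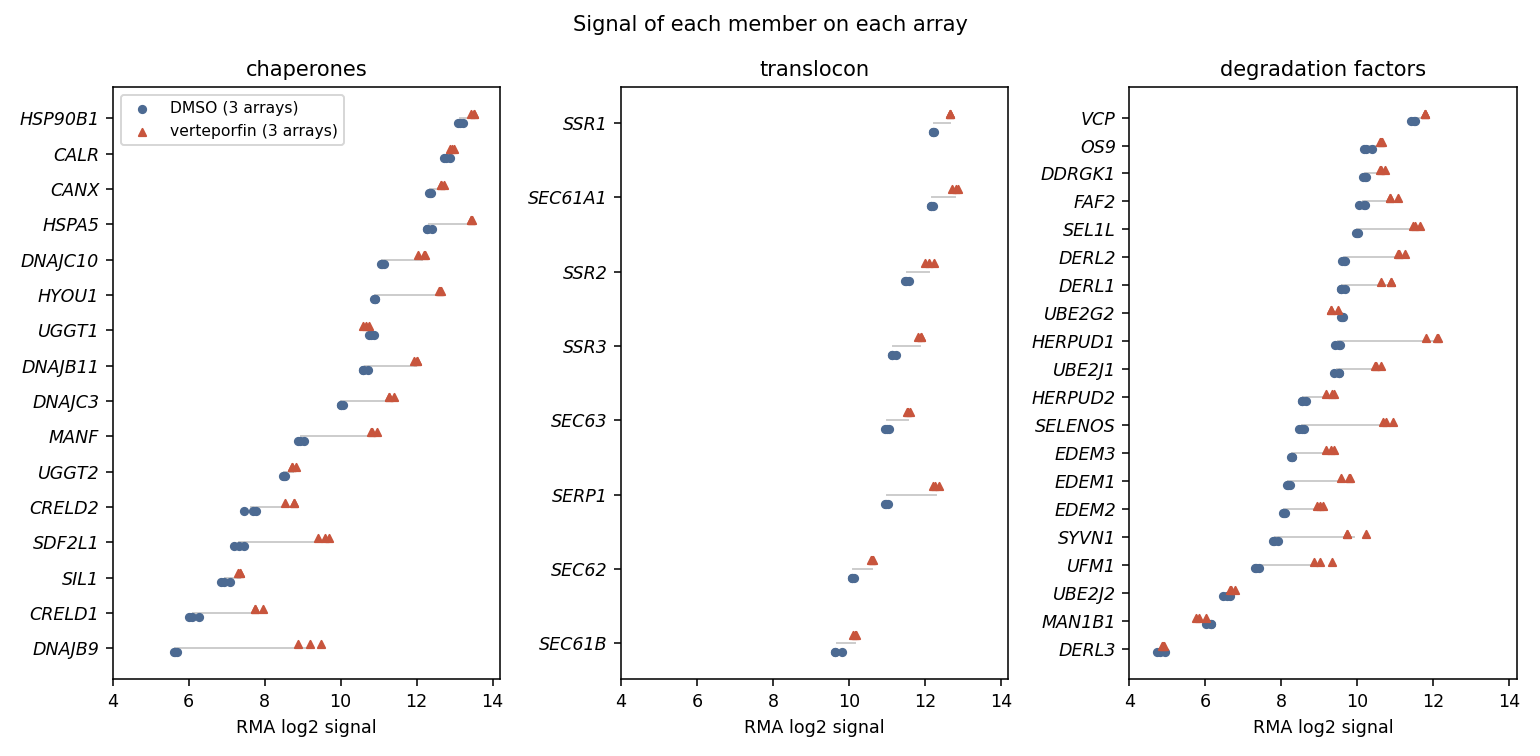
RMA log2 signal of each of the 44 members on each array, in 3 panels by class, with circles for the 3 DMSO arrays and triangles for the 3 verteporfin arrays. Members are ordered for display only. DNAJB9 moves from 5.60 to 5.68 in DMSO to 8.87 to 9.48 in verteporfin, while the 3 arrays of each group overlap for UGGT1, MAN1B1 and DERL3.

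HSPA5, the ATP-driven chaperone at the centre of ER folding and a brake on the stress sensors, read 12.40, 12.28 and 12.28 on the DMSO arrays. On the verteporfin arrays it read 13.46, 13.43 and 13.43, a 2.17-fold rise (log2 difference 1.12 ± 0.06 SE; each group had n = 3 arrays throughout). The partners that regulate HSPA5 follow. HYOU1, a large relative that resets HSPA5 by exchanging its nucleotide, read 10.91, 10.87 and 10.90 in DMSO and 12.61, 12.63 and 12.59 in verteporfin. It rose 3.29-fold (1.72 ± 0.06). SIL1, the other exchange factor of the ER, rose by 0.38 ± 0.08, and its groups did not overlap either.

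The J-domain proteins bring clients to HSPA5 and trigger its ATP use. DNAJB9, also called ERdj4 and known to restrain the sensor IRE1, read 5.68, 5.64 and 5.60 in DMSO and 9.48, 8.87 and 9.20 in verteporfin. Its 11.6-fold rise (3.54 ± 0.14) had the highest log2 difference of the 44 members, and its verteporfin arrays spread by an SD of 0.31. DNAJB11, a J-protein of folding, read 10.73, 10.60 and 10.58 in DMSO and 11.93, 12.01 and 12.01 in verteporfin, a 2.54-fold rise (1.35 ± 0.07). DNAJC3, also called P58IPK and known to inhibit the kinase PERK, read 10.01, 10.00 and 10.05 in DMSO and 11.40, 11.27 and 11.28 in verteporfin, a 2.45-fold rise (1.29 ± 0.06). DNAJC10, a disulfide reductase that opens chains for degradation, rose by 1.05 ± 0.07. In each of these 4 genes the groups were far apart compared with the spread inside them.

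Among the smaller helpers, SDF2L1, a cofactor of the J-proteins, read 7.44, 7.31 and 7.19 in DMSO and 9.69, 9.58 and 9.40 in verteporfin, a 4.73-fold rise (2.24 ± 0.10). MANF, a secreted and ER-resident factor that binds HSPA5, read 9.04, 8.92 and 8.88 in DMSO and 10.96, 10.79 and 10.82 in verteporfin, a 3.77-fold rise (1.92 ± 0.08). Both genes had every verteporfin array more than 1 log2 unit above every DMSO array. CRELD1, a membrane protein with EGF-like domains, read 6.27, 6.01 and 6.07 in DMSO and 7.95, 7.73 and 7.76 in verteporfin, a 3.24-fold rise (1.70 ± 0.09). Its luminal relative CRELD2 rose by 1.05 ± 0.10. The adjusted p of the 8 chaperones given by array, in these 3 paragraphs, lay between 1.82e-06 and 1.17e-05.

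The lectin cycle and the ER form of the HSP90 chaperone had the smallest differences among the chaperones. HSP90B1 rose by 0.35 ± 0.07 and calnexin, CANX, by 0.31 ± 0.06. Calreticulin, CALR, differed by 0.15 ± 0.07 (95% interval 0.00 to 0.30, adjusted p = 0.152), although its 3 verteporfin arrays lay above its DMSO arrays. With an intensity trend in the variance model CALR passed (adjusted p = 0.0178). UGGT1, the folding sensor that returns glycoproteins to the lectins, was at -0.15 ± 0.07 (interval -0.32 to 0.02, adjusted p = 0.206). Its relative UGGT2 rose by 0.25 ± 0.06 (adjusted p = 0.0166), a call lost without DMSO replicate 3 (adjusted p = 0.0588) and without verteporfin replicate 2 (adjusted p = 0.0517).
HSPA5, HSP90B1, CALR, CANX, SEC61A1 and SSR1 had DMSO means of at least 12, close to the highest value on the arrays (13.8). Of 113 genes with such a DMSO mean, 20 rose and 1, HSPA5, rose at least 2-fold. Whether the top of the signal range held back these differences was not tested.

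**Figure D3:**
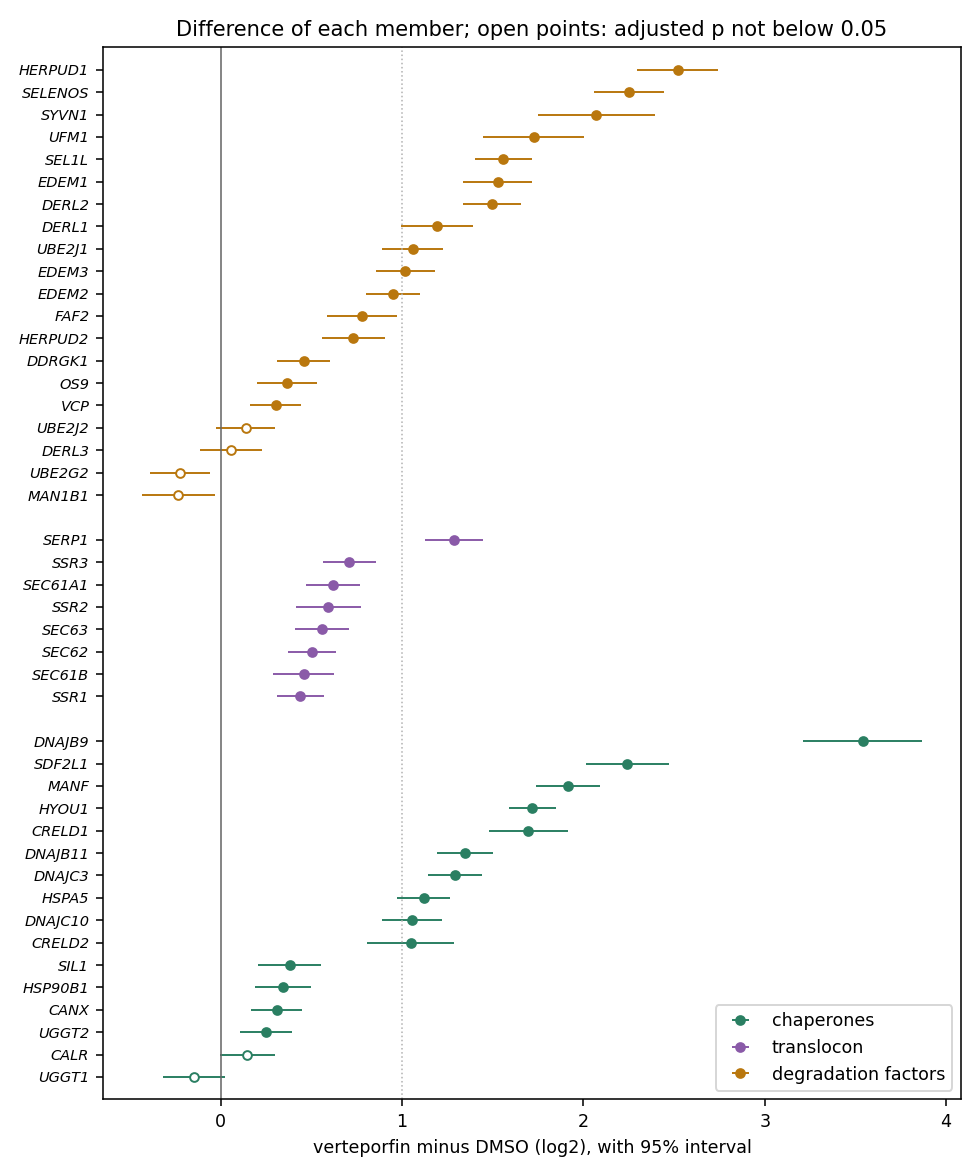
Log2 difference (verteporfin minus DMSO) of each member with its 95% interval, by class, with open points for the 6 members that did not pass and a dotted line at a difference of 1. The translocon genes other than SERP1 sit between 0.44 and 0.71, while chaperones reach 3.54 and degradation factors 2.52.

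In the translocon every measured gene rose. SERP1, also called RAMP4, a small protein attached to the channel that stabilises new membrane proteins under stress, read 10.96, 10.98 and 11.03 in DMSO and 12.37, 12.26 and 12.20 in verteporfin. Its 2.44-fold rise (1.29 ± 0.07) was the 1 rise of at least 2-fold in the class. SEC61A1, the subunit that forms the pore, read 12.17, 12.20 and 12.17 in DMSO and 12.81, 12.72 and 12.87 in verteporfin, a 1.54-fold rise (0.62 ± 0.06). SSR3, a subunit of the translocon-associated protein (TRAP) complex that helps some chains open the channel, read 11.13, 11.12 and 11.23 in DMSO and 11.89, 11.91 and 11.83 in verteporfin, a 1.63-fold rise (0.71 ± 0.06). SEC62, which serves chains delivered after translation and also acts as a receptor for autophagy of the ER, read 10.13, 10.07 and 10.09 in DMSO and 10.62, 10.60 and 10.58 in verteporfin, a 1.42-fold rise (0.50 ± 0.06). The groups did not overlap for any of the 8.
The small channel subunit SEC61B rose by 0.46 ± 0.07 and SEC63, the J-domain protein that couples the channel to HSPA5, by 0.56 ± 0.06. The TRAP subunits SSR1 and SSR2 rose by 0.44 ± 0.06 and 0.59 ± 0.08. The adjusted p of the 8 genes lay between 8.55e-06 and 0.00182.

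Degradation begins with recognition of the sugar on a chain. EDEM1, EDEM2 and EDEM3 trim mannose to mark chains for removal. EDEM1 read 8.17, 8.24 and 8.14 in DMSO and 9.79, 9.56 and 9.77 in verteporfin, a 2.88-fold rise (1.53 ± 0.08). EDEM2 read 8.07, 8.04 and 8.10 in DMSO and 9.09, 8.95 and 9.03 in verteporfin, a 1.93-fold rise (0.95 ± 0.06). EDEM3 rose by 1.02 ± 0.07, so all 3 members of the family were higher. The lectin OS9, which reads the trimmed sugar, rose by 0.37 ± 0.07. MAN1B1, another mannosidase of this step, was at -0.23 ± 0.09 (interval -0.43 to -0.03, adjusted p = 0.0866), with 1 verteporfin array equal to the lowest DMSO array. Without verteporfin replicate 1 its fall passed (-0.31, adjusted p = 0.0250).

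The marked chains go to the ligase complex in the membrane. SYVN1, also called HRD1, the ubiquitin ligase and channel of this complex, read 7.92, 7.79 and 7.78 in DMSO and 10.24, 9.74 and 9.73 in verteporfin, a 4.20-fold rise (2.07 ± 0.14). SEL1L, its adaptor, read 10.03, 9.99 and 9.96 in DMSO and 11.64, 11.47 and 11.53 in verteporfin, a 2.94-fold rise (1.56 ± 0.07). Both genes of the core pair were thus higher on every array. HERPUD1, which assembles the complex and is itself short-lived, read 9.53, 9.41 and 9.55 in DMSO and 12.13, 11.82 and 12.09 in verteporfin. Its 5.74-fold rise (2.52 ± 0.10) had the highest log2 difference of the degradation factors.
The derlins form part of the exit channel. DERL2 read 9.60, 9.66 and 9.67 in DMSO and 11.25, 11.08 and 11.10 in verteporfin, a 2.82-fold rise (1.50 ± 0.07), and DERL1 rose by 1.19 ± 0.09. DERL3 was at 0.06 ± 0.07 (interval -0.11 to 0.23, adjusted p = 0.678), with DMSO values of 4.94, 4.81 and 4.72 around the median signal. Whether so dim a signal lies above background was not tested.

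Extraction by the ATPase VCP and tagging with ubiquitin complete the path. SELENOS, a selenoprotein that anchors VCP to the derlins, read 8.55, 8.59 and 8.47 in DMSO and 10.94, 10.67 and 10.76 in verteporfin, a 4.77-fold rise (2.25 ± 0.08). VCP itself rose by 0.30 ± 0.06, and FAF2, another membrane anchor for VCP, by 0.78 ± 0.08. Both anchors and VCP itself were higher on every verteporfin array. UBE2J1, the membrane-bound ubiquitin-conjugating enzyme that works with SYVN1, read 9.40, 9.51 and 9.52 in DMSO and 10.63, 10.47 and 10.50 in verteporfin, a 2.08-fold rise (1.06 ± 0.07). The other conjugating enzymes did not pass. UBE2J2 was at 0.14 ± 0.07 (interval -0.03 to 0.30, adjusted p = 0.221).
UBE2G2 was at -0.22 ± 0.07 (interval -0.39 to -0.06, adjusted p = 0.0525). Its 3 verteporfin arrays (9.30, 9.49 and 9.32) all lay below its 3 DMSO arrays (9.59, 9.63 and 9.56), the 1 member of the 44 with that order. The values by array of UBE2G2 and DERL3 are given because of their result, outside the rule for the other members. The fall of UBE2G2 passed in 5 of 14 alternative fits, with adjusted p from 0.0200 to 0.152 over all of them.

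UFM1 is a ubiquitin-like tag that is placed on ribosomes at the ER, and DDRGK1 holds its ligase at the membrane. UFM1 rose by 1.73 ± 0.12, with verteporfin arrays spread by an SD of 0.25, and DDRGK1 rose by 0.46 ± 0.06. The adjusted p of the 8 degradation factors given by array under the rule lay between 2.14e-06 and 2.74e-05.

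Relatives within a family were compared with each other. For 8 pairs, the log2 signal of one gene minus that of the other was taken within each array and compared between the groups. The HERPUD1 difference exceeded that of HERPUD2 (0.73 ± 0.08 SE) by 1.79 log2 units, with SDs over the arrays of 0.14 in DMSO and 0.06 in verteporfin. UBE2J1 exceeded UBE2J2 by 0.92 (SDs 0.14 and 0.13), EDEM1 exceeded EDEM2 by 0.58 (0.08 and 0.07) and EDEM3 by 0.51 (0.04 and 0.05), and DERL2 exceeded DERL1 by 0.30 (0.05 and 0.12). In the other direction, CRELD2 minus CRELD1 was -0.65 (SDs 0.15 and 0.26), UGGT1 minus UGGT2 was -0.40 (0.09 and 0.10) and DERL3 minus DERL1 was -1.13 (0.17 and 0.17). Since the signal of DERL3 was dim and was not tested against background, that last value mostly restates the rise of DERL1. It does not show how DERL3 responded. The 3 verteporfin arrays did not overlap the 3 DMSO arrays in any of the 8 pairs. Such separation was common: of single genes above the median signal, 31.8% lay wholly above and 30.9% wholly below. The share among other pairs of genes was not computed, so the count for the 8 pairs is a description only. The exact two-sided permutation p was 0.1 for each pair, also after adjustment over the 8 pairs, which is the smallest that 3 against 3 arrays can give, so no pair could pass.

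**Figure D4:**
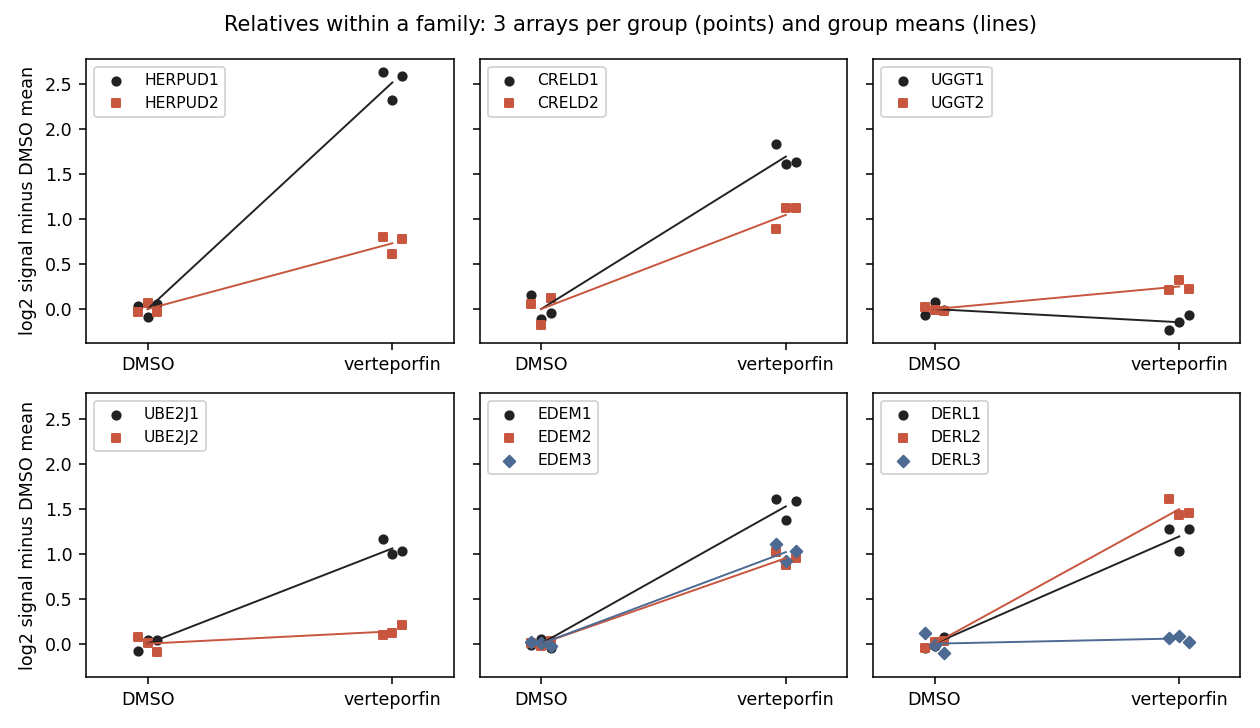
Log2 signal of related genes minus each gene's own DMSO mean, in 6 families, with points for the 3 arrays of each group and lines between group means. HERPUD1 and UBE2J1 separate from HERPUD2 and UBE2J2, the 3 EDEM genes all move upward, and the flat line of DERL3 is a dim signal not tested against background.

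The arrays of a group did not stand at one level for these genes. DMSO replicate 1 was the highest of its group for 21 of the 44 members. Verteporfin replicate 1 was the highest of its group for 24 of the 44 members and for 16 of the 21 that rose at least 2-fold (76.2%). Over all 658 genes that rose at least 2-fold it was the highest for 481 (73.1%), so the members shared this order with other genes that rose. The median SD of a member was 0.06 in DMSO and 0.09 in verteporfin, against 0.09 and 0.11 for genes above the median signal.

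Other genes of the same pathways were read from lists that do not hold the members. The background for each list is that of genes above the median signal, of which 26.3% rose and 25.6% fell. Of 26 other ER folding factors 14 rose and 8 fell, with a median difference of 0.32. The J-domain proteins DNAJC1 (1.87 ± 0.07 SE) and DNAJC25 (1.49 ± 0.08) and the HSPA5 relative HSPA13 (1.94 ± 0.07) rose. The calcium-binding RCN2 (-1.34 ± 0.09), PRKCSH, the beta subunit of the glucosidase that feeds the lectin cycle (-1.07 ± 0.10), and CNPY2 (-1.09 ± 0.10) fell.

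Of 38 other genes of targeting and insertion, 22 rose and 4 fell, with a median of 0.39. The signal peptide peptidase HM13 (1.33 ± 0.07) and both subunits of the receptor for the signal recognition particle, SRPRB (1.15 ± 0.07) and SRPRA (0.98 ± 0.06), rose, while EMC1 (-0.58 ± 0.07), SRP9 (-0.42 ± 0.06) and TRAM2 (-0.51 ± 0.08) fell. SSR4, the remaining TRAP subunit, is added to complete the complex and rose by 1.11 ± 0.09. Of 32 other genes of ER-associated degradation 19 rose and 4 fell, with a median of 0.32. The rhomboid protease RHBDD1 (1.40 ± 0.08), ERLEC1, a lectin that acts beside OS9 (1.13 ± 0.07), and the ligase RNF185 (1.60 ± 0.15) rose. SVIP, a small inhibitor of VCP-dependent degradation (-0.65 ± 0.07), ERLIN2 (-0.48 ± 0.10) and FAM8A1 (-0.45 ± 0.10) fell. Of 5 other genes of the UFM1 system 3 rose (ODR4 by 1.06 ± 0.07, UFSP2 by 0.52 ± 0.06 and CDK5RAP3 by 0.55 ± 0.08), and UFC1 (0.18 ± 0.08) and UFSP1 (0.05 ± 0.09) did not pass.

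Of 8 receptors for autophagy of the ER, 5 of them above the median signal, 3 rose (37.5%) and 1 fell (12.5%), with a median of 0.06. Over all genes 14.3% rose and 14.3% fell. CALCOCO1 (1.45 ± 0.07) and RTN3 (0.53 ± 0.09) rose, CCPG1 rose by 2.01 ± 0.25 from a dim DMSO mean (4.48, under the median signal), and RETREG3 fell (-0.72 ± 0.08). Of 13 regulators of the unfolded protein response 7 rose and 3 fell. ERN1, which encodes IRE1, rose by 2.54 ± 0.11 and PPP1R15A by 3.27 ± 0.17, and DDIT3 by 3.28 ± 0.17 from a dim DMSO mean (4.15). For such dim genes the value is a difference of signal, not the size of the change in transcript. CREB3L3 (-1.26 ± 0.11), XBP1 (-0.54 ± 0.07) and ATF6B (-0.33 ± 0.07) fell. The XBP1 probe set was read as 1 signal, so spliced and unspliced forms were not separated.

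**Figure D5:**
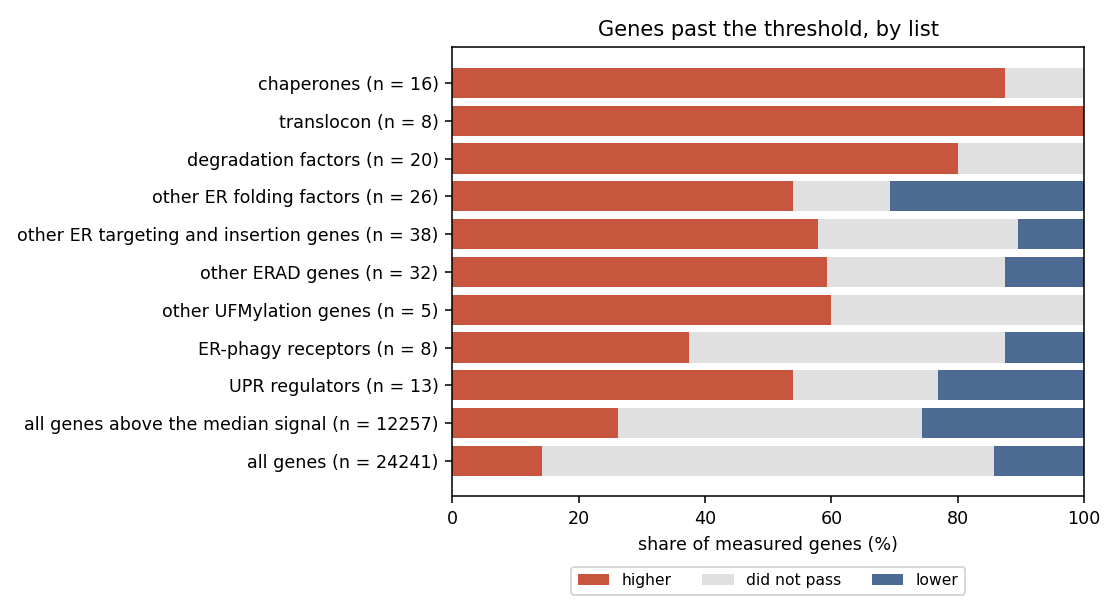
Share of measured genes in each list that were higher, lower or did not pass, in percent, with the number measured in brackets and all genes as the background. The share higher is 87.5% in chaperones, 100% in the translocon and 80% in degradation factors, against 26.3% of genes above the median signal and 14.3% of all genes.

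The genes with an ER stress element of either form in their window, read by promoter and not by function, numbered 36 with a measured signal. Of these 21 rose, 4 fell and 11 did not pass. The 9 members among them gave 8 of the rises, and of the 27 other genes 13 rose, 4 fell and 10 did not pass. Of all 44 members 38 rose (86.4%), so 8 of 9 is near the share of the members as a whole. Over all genes 14.3% rose and 14.3% fell, and of those above the median signal 26.3% rose and 25.6% fell. The genes named next are examples and do not follow the order of the differences. Among genes outside the members, RAD9A (1.10 ± 0.10), TRIM5 and NUCB1 (0.83 ± 0.06) also rose, by more than PDIA6. PLS3 (-0.52 ± 0.07), GYS1 and ZNF17 fell, as XBP1 did. ERO1B, also dim in DMSO, rose by 3.54 ± 0.08. FICD, which modifies HSPA5, rose by 3.08 ± 0.18 and the disulfide isomerase PDIA6 by 0.47 ± 0.07, while XBP1 fell. SERP1 shares its match with the neighbouring gene EIF2A (0.56 ± 0.06) and CRELD2 shares its match with ALG12 (0.34 ± 0.09), since the windows of each pair lie over the same bases. A match of the second form stood with log2 differences of 1.72 to 2.52 in its 3 members, and a match of the first form with 0.15 to 1.29 in its 6. That order did not extend to other measured genes. Their median difference was 0.24 for the 14 with the first form, ERO1B and FICD among them, and 0.09 for the 13 with the second. Of the 6 members with the first form, HSPA5, HSP90B1, CALR and CANX had DMSO means of at least 12. These values describe the 9 members and other genes chosen by letters in a window, with no test.

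Of 11 measured markers of hepatocytes and HepG2 cells, 11 lay above the median signal in both groups. Their summed signal on the linear scale was 43760 to 44389 on the DMSO arrays and 18301 to 20648 on the verteporfin arrays. Of the 11, 8 were lower, against 25.6% of genes above the median signal. HNF4A was not analysed here. Of 11 markers of immune, endothelial and mesenchymal cells 2 lay above the median signal, COL1A1 and ACTA2, and PTPRC, PECAM1, COL3A1 and DCN lay below it in both groups. Their summed signal was 369 to 413 in DMSO and 318 to 365 in verteporfin, with ACTA2 and COL1A1 as its largest terms. CD14, dim in both groups, was the 1 marker of this list that passed (-0.34 ± 0.07, adjusted p = 0.00616). The part of these lower marker transcripts in the ER results was not tested.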

How the data were processed

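Total RNA of 6 HepG2 samples was labelled with biotin and read on Affymetrix arrays, per the labels. The deposited values are log2 signals. The authors used RMA for them, per the submitters' processing notes. They run from 3.17 to 13.8, and the sorted values of the 6 arrays are identical, so a shift common to every transcript cannot show. For the RMA version and the probe set definitions, nothing is given in the sources used here. Of 25582 probe sets, 24244 had 1 gene symbol and 1338 had none. For 3 shared symbols the brightest probe set was kept, which left 24241 genes.

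From these values, limma 3.58.1 in R 4.3.3 (lmFit, eBayes) tested verteporfin minus DMSO over all 6 arrays, two-sided, adjusted by Benjamini-Hochberg over all genes. SE is the moderated standard error. The labels do not state separate cultures for the samples of a group, so p-values rest on a spread between samples that may be technical. The number of arrays limits the precision. Alternatives were trend and robust variance, array weights, a filter at the median signal, all probe sets, cyclic loess, centring, a replicate block and each array left out.

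The members, lists and tests were chosen with earlier results of these data known. All members were named. Values by array were given for the 8, 4 and 8 members with the smallest adjusted p in the chaperones, translocon and degradation factors, and from each other list up to 3 genes that passed in each direction. Promoter windows are RefSeq's (GRCh38.p14). Protein sequences were not used here.

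Within a group the arrays correlated at 0.995 to 0.997, and between groups at 0.969 to 0.977.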

Additional observations from a re-analysis of the deposited data

How the results depend on the processing

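Over 14 alternatives, 40 of the 44 members kept their call, and the direction turned for 0 members. The calls that changed were those of CALR, UGGT2, MAN1B1 and UBE2G2. The count of degradation factors that fell moved from 0 to 1 with an intensity trend, with array weights, with genes above the median signal only and with cyclic loess, and lay between 0 and 1 with arrays left out (UBE2G2 or MAN1B1). The count of chaperones that rose lay between 13 and 14 with arrays left out, against 14, and those of the translocon and of degradation factors stayed at 8 and 16. ER-phagy receptors that fell numbered 1 to 2 with arrays left out. With CCACG alone in place of the whole ER stress element, 36 members held a match, against 6. It stood in 41 of the 50 member windows (82.0%) and in 38.1% of all windows. The replicate numbers did not pair the arrays (correlations of deviations -0.02, -0.11 and -0.01), and with the replicate block 14, 8 and 16 members of the 3 classes rose, the same counts as without it. Dim signal limits DERL3, and detection calls were not used here.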
